A study of Caenorhabditis elegans with 12 samples.

Results

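The 31 genes described here encode aminoacyl-tRNA synthetases of Caenorhabditis elegans, the enzymes that join an amino acid to its tRNA. They were taken by symbol: a letter for the amino acid, then ars- and the number 1 or 2. In the reference 33 symbols had this form, and cars-2 was left out because it is annotated as a pseudogene. Of the 32 protein-coding genes, rars-2 had no row in the table of mRNA genes, which left 31 of 22191 rows, 20 numbered 1 and 11 numbered 2. Together they covered all 20 amino acids.

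Total RNA of C. elegans, with the source given only as whole cell tissue, was sequenced in 12 libraries. The strains were N2, labelled wild type, and CN30, labelled trans-nuclear, with NC30 in the library titles and NC in the table's columns taken to be the CN30 of the strain field. Both grew on E. coli OP50 at a temperature of 20 °C. Either strain had 3 libraries of day 0 and a single library of day 6, of day 9 and of day 12. It is not stated if the replicates came from different cultures, so the p-values measure the spread between libraries, which may be technical. Sex, and the origin of the nucleus and the mitochondria of CN30, are not stated either.

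Each synthetase recognises its own amino acid and the matching tRNAs, and the charged tRNA then carries the amino acid to the ribosome. Animal cells translate both in the cytosol and in mitochondria. The mitochondrial synthetases are encoded in the nucleus and imported, and for some amino acids a single gene supplies both compartments, as for the glycyl and the lysyl enzyme in humans. By the naming used for these worm genes the number 1 marks the cytosolic and the number 2 the mitochondrial enzyme. The alanine pair runs the other way, since the worm aars-2 is known as the gene of the cytosolic alanyl enzyme and aars-1 as that of the mitochondrial enzyme. Counts are therefore given by number, and again with the alanine pair exchanged, a regrouping added after the values were seen. For the other genes the number alone gave the class, and their compartments were not checked, that of the valyl gene vars-1 included.

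The deposited values are FPKM, fragment numbers scaled for gene length and for the size of the library. Levels can therefore be set side by side between genes whose reads are assigned to them alone. No read counts were used and the depth of the libraries is unknown. The 6 day-0 libraries summed to 874694 to 911271 FPKM over all mRNA rows and the 6 later ones to 726252 to 779302. Across genes, N2 day-0 replicate 2 correlated with its fellow replicates at 0.958 and 0.9534, while the other same-strain day-0 pairs reached 0.9885 to 0.993. Several counts and calls changed when this library was left out, and the main ones are given with the results. In RNA of mixed tissues, fewer cells of a type and less RNA per cell cannot be told apart.

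The genes numbered 1 were the more abundant class. Their median FPKM, taken over the gene means of the 12 libraries, was 133 against 23.1 for the genes numbered 2. The highest was kars-1, the lysyl gene (chromosome II, 7070183 to 7072415, minus strand, WBcel235, 4 exons), with a mean of 326.8 FPKM. Its N2 values were 342.53, 383.38 and 332.59 FPKM at day 0 and 328.89, 317.18 and 341.62 FPKM at days 6, 9 and 12. Its CN30 values were 335.10, 332.57 and 324.78 FPKM at day 0 and 307.77, 292.92 and 282.74 FPKM later. Its later CN30 libraries all lay under every other library.

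Below kars-1 the mean levels fell without a clear step. The threonyl gene tars-1 had a mean of 210.0 FPKM, the seryl gene sars-1 202.8 FPKM and the methionyl gene mars-1 193.2 FPKM. The aspartyl gene dars-1 followed at 174.3 FPKM, and the alanyl gene aars-2 at 169.0 FPKM. Over the 12 libraries these genes overlapped: tars-1 lay between 199.14 and 238.31 FPKM, and mars-1 between 173.98 and 232.54 FPKM. The isoleucyl gene iars-1 (151.6 FPKM), the prolyl gene pars-1 (151.2 FPKM), the glutamyl gene ears-1 (138.0 FPKM) and the glutaminyl gene qars-1 (136.4 FPKM) could not be placed in order beyond their spread. The leucyl gene lars-1 (135.9 FPKM), the asparaginyl gene nars-1 (130.8 FPKM) and the cysteinyl gene cars-1 (116.8 FPKM) overlapped with these. A lower band held the tryptophanyl gene wars-1 (81.32 FPKM), fars-1 (75.27 FPKM), the tyrosyl gene yars-1 (59.63 FPKM), hars-1 (58.80 FPKM), gars-1 (58.62 FPKM) and rars-1 (43.25 FPKM). Of these, fars-1, hars-1, gars-1 and rars-1 lay under an assembled locus, described below, that can take their reads. Those loci had means of 61.46, 48.55, 44.29 and 76.11 FPKM, so the place of these genes in the order is not settled.

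Among the genes numbered 2, aars-2 stood apart at the level of the cytosolic genes. Its partner aars-1 had a mean of 14.37 FPKM and a range of 11.76 to 18.09 FPKM. Apart from aars-2, the class ran from fars-2 (52.11 FPKM) and sars-2 (44.12 FPKM) through pars-2 (29.38 FPKM), nars-2 (27.50 FPKM), mars-2 (23.12 FPKM), yars-2 (22.53 FPKM) and lars-2 (18.86 FPKM) to ears-2 (15.90 FPKM) and iars-2 (10.08 FPKM). The range of sars-2 (37.81 to 54 FPKM) lay above that of pars-2 (25.09 to 33.4 FPKM), while all other neighbours in this order overlapped. The genes aars-1, fars-2, mars-2, yars-2 and iars-2 also lay under an assembled locus, so their place is not settled either.

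In 12 of the 32 protein-coding genes an assembled locus in the same table covered exons of the gene on the same strand. Such a locus is a transcript model built from the libraries, named MXLOC in the table, and reads of the gene can be assigned to either. For 2 members and for rars-2 nearly no value remained with the annotated gene. The valyl gene vars-1 (chromosome V, 8031411 to 8035025, plus strand, 8 exons) was listed at 6.17, 0 and 9.24 FPKM in the day-0 N2 libraries and at 0.45 FPKM in CN30 day-0 replicate 3. With N2 replicate 2 it was listed at 0 in 9 libraries. The locus MXLOC_014825 over 96.1% of its exon bases had 19, 20.91 and 17.38 FPKM in N2 at day 0 and 61.39, 52.99 and 48.83 FPKM later. In CN30 that locus had 25.90, 27.98 and 21.88 FPKM at day 0 and 51.17, 42.10 and 38.84 FPKM later, so it was present where vars-1 was listed at 0.

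The aspartyl gene dars-2 (chromosome V, 12048745 to 12052181, plus strand, 7 exons) was listed at 0.11 FPKM in N2 day-0 replicate 1 and at 0 in the other 11 libraries. The locus MXLOC_015389 covered 99.9% of its exon bases. That locus held 9.51 to 13.65 FPKM over the 6 day-0 libraries and 13.64 to 19.33 FPKM over the later ones. The arginyl gene rars-2 (chromosome II, 6125559 to 6127942, plus strand, 7 exons) lay wholly within MXLOC_004114, which had 13.76 to 16.31 FPKM in N2 at day 0 and 40.54 to 46.67 FPKM later. In CN30 that locus had 17.21 to 19.95 FPKM at day 0 and 41.40 to 45.51 FPKM later. The share of each locus that came from the synthetase gene was not tested. A value of 0 for vars-1 or dars-2 is therefore a listing, not a sign that the gene was silent.

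**Figure D1:**
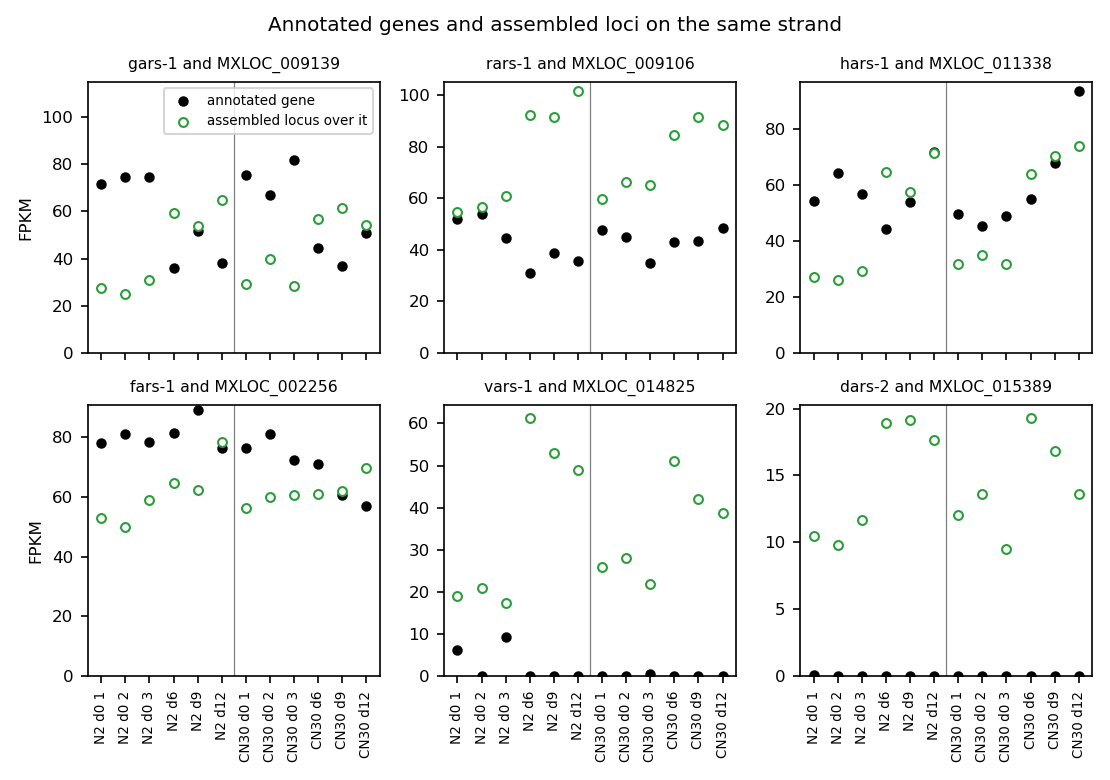
FPKM of 6 synthetase genes (filled points) and of the assembled locus over each on the same strand (open points) in the 12 libraries, N2 left and CN30 right of the grey line. In the gars-1 panel the gene falls from 71.58 to 74.77 FPKM at day 0 to 36.03 to 51.66 FPKM later in N2 while its locus rises, and in the vars-1 panel the gene is at 0 in every later library while its locus is above 38 FPKM.

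The age comparison asked which synthetase transcripts differed between days 6 to 12, taken as 1 age class, and day 0. In N2, 8 of the 29 members tested were higher later and 2 were lower at an adjusted p under 0.05 (limma on log2(FPKM + 1), Benjamini-Hochberg over all 14129 genes tested). The background was high, since 72.7% of all genes tested were called, 40.7% higher and 32% lower. The members' median difference was 0.20 on the log2 scale, against 0.14 for all genes. Above the median of all genes lay 18 of the 29 members. The later libraries lay wholly above day 0 for 12 members and wholly below it for 3, against 42.9% and 33.6% of all genes.

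In CN30, 15 of the 29 members tested were higher later and 3 lower by limma, with 80.9% of all 15069 genes tested called, 46% higher and 34.9% lower. The members' median difference was 0.26 against 0.24 for all genes, and 16 of 29 members lay above that median. Without overlap 19 members were higher and 3 lower, against 47.4% and 36.2% of all genes. These counts depend on the scaling. Median-ratio rescaling moved the median of all genes from 0.14 to -0.03 in N2 and from 0.24 to -0.03 in CN30. It left 4 members higher and 3 lower in N2, and 4 higher and 7 lower in CN30. Of all genes, 5110 of 14171 were then higher and 5133 lower in N2, and 5628 of 15083 and 6142 in CN30. Quantile normalization gave 6170 of 14129 genes higher and 3867 lower in N2, and 7021 of 15069 and 4785 in CN30. These all-gene counts also apply to the classes and gene lists below. Without N2 day-0 replicate 2, or without N2 day-0 replicate 1, 5 members were higher in N2, and without CN30 day-0 replicate 1, 9 were higher in CN30.

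The 2 classes gave different counts. Of the genes numbered 1, 2 of 19 were higher and 2 lower in N2, and 8 were higher and 3 lower in CN30. Of the genes numbered 2, 6 of 10 were higher in N2 and 7 of 10 in CN30, and none was called lower in either strain, as given by limma, against 40.7% and 46% of all genes called higher. The median differences of the genes numbered 2 were 0.34 in N2 and 0.38 in CN30, against 0.12 and 0.18 for the genes numbered 1. With the alanine pair exchanged the mitochondrial set had 5 and 6 of 10 genes higher. Of the exchanged classes without genes under an assembled locus, 3 of 5 mitochondrial genes were higher in each strain. Of the cytosolic genes so taken, 3 of 15 were higher in N2 and 8 of 15 in CN30. After median-ratio rescaling 2 of 10 genes numbered 2 were higher in each strain and 1 was lower in CN30. Their medians were then 0.17 in N2 and 0.10 in CN30, against -0.06 and -0.11 for the genes numbered 1. After quantile normalization 4 of 10 were higher and 1 lower in each strain. The class medians were then 0.24 for the genes numbered 2 against 0.20 for those numbered 1 in N2, and in CN30 their order turned, at 0.22 against 0.32. Whether the classes differ was not tested.

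**Figure D2:**
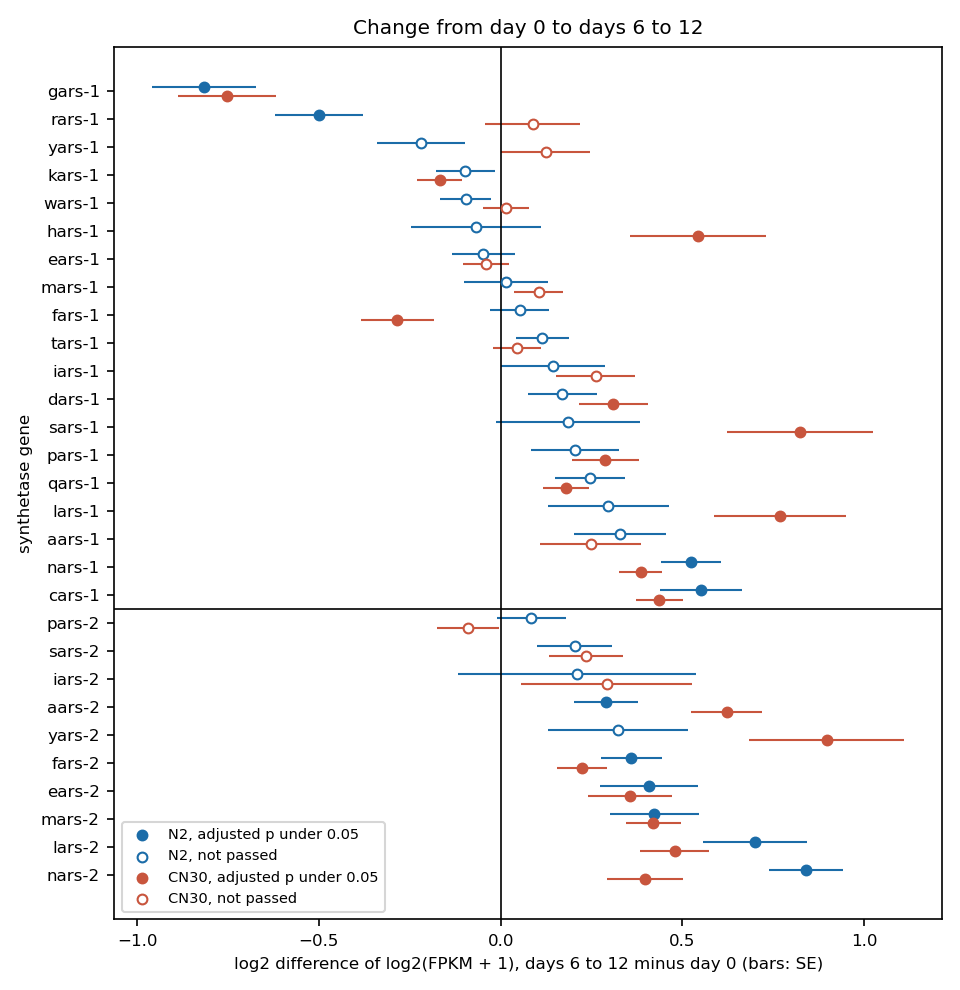
Difference of log2(FPKM + 1) between days 6 to 12 and day 0 for the 29 members tested, with its standard error, in N2 and CN30; filled points have an adjusted p under 0.05 in limma, and genes numbered 2 stand under the line. All 10 genes numbered 2 lie at or above 0.08 in N2, while gars-1 lies at -0.82 in N2 and at -0.75 in CN30.

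Asparagine was the only amino acid for which limma called both genes higher in both strains. Both alanyl genes also lay above day 0 without overlap in both strains, but aars-1 missed the threshold (limma, adjusted p 0.053 in N2 and 0.14 in CN30). The gene nars-2 (chromosome III, 11488355 to 11500747, minus strand, 6 exons) had 19.53, 21.50 and 20.70 FPKM in N2 at day 0 and 39.90, 38.66 and 34.43 FPKM at days 6, 9 and 12. For CN30 the values were 22.10, 22.31 and 22 FPKM at day 0 and 33.49, 29.0 and 26.35 FPKM later. Every later library lay above every day-0 library of both strains, and within each strain day 6 was the highest. The difference was 0.84 ± 0.10 (SE) in N2 with an adjusted p of 0.000353, and 0.40 ± 0.10 in CN30 with an adjusted p of 0.0108 (limma).

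The partner nars-1 (chromosome I, 7088030 to 7090062, minus strand, 6 exons) encodes the enzyme numbered as cytosolic. In N2 it rose from 103.43, 118.33 and 112.02 FPKM to 153.02, 157.20 and 170.45 FPKM. In CN30 it went from 109.54, 105.13 and 112.45 FPKM to 143.35, 139.40 and 145.31 FPKM. The groups did not overlap in either strain, and limma gave differences of 0.52 ± 0.08 (adjusted p 0.0013) and 0.39 ± 0.06 (adjusted p 0.00103). After median-ratio rescaling the CN30 values of both asparaginyl genes lost the call, with adjusted p of 0.291 for nars-1 and 0.4 for nars-2, and nars-2 also lost it after quantile normalization (adjusted p 0.393).

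The cysteinyl gene cars-1 (chromosome I, 2623099 to 2628112, minus strand, 7 exons) is the sole protein-coding cysteinyl gene of the rule, beside the pseudogene cars-2. In N2 it had 98.14, 90.25 and 104.13 FPKM at day 0 and 129.52, 137.28 and 164.88 FPKM later. The CN30 libraries had 97.83, 92.03 and 97.36 FPKM at day 0 and 125.57, 128.19 and 136.01 FPKM later. The later libraries lay above all day-0 libraries and rose from day 6 to day 12 in both strains. The limma differences were 0.55 ± 0.11 (adjusted p 0.00417) in N2 and 0.44 ± 0.06 (adjusted p 0.000816) in CN30, and the CN30 call was lost after median-ratio rescaling (adjusted p 0.115).

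Among the other genes numbered 2, the leucyl gene lars-2 was called higher in both strains. It had 14.53, 13.34 and 16.31 FPKM in N2 at day 0 and 21.52, 24.14 and 28.23 FPKM later, a difference of 0.70 ± 0.14 (limma, adjusted p 0.00418). CN30 libraries gave 14.61, 16 and 14.13 FPKM at day 0 and 22.15, 19.68 and 21.72 FPKM later, a difference of 0.48 ± 0.10 (limma, adjusted p 0.00324) that was lost after median-ratio rescaling (0.20, adjusted p 0.107). The methionyl gene mars-2, the phenylalanyl gene fars-2 and the glutamyl gene ears-2 were also called higher in both strains by limma, by 0.36 to 0.42 in N2 and by 0.22 to 0.42 in CN30. Of these, fars-2 turned to a negative difference in CN30 after median-ratio rescaling (-0.064) and in both strains after quantile normalization (-0.081 in N2 and -0.15 in CN30), with none of these 3 values past the threshold, and its N2 call was lost after median-ratio rescaling (adjusted p 0.141). Its CN30 call was lost without CN30 day-0 replicate 1 or 2 or day 9. The calls on mars-2 were lost in both strains after median-ratio rescaling (adjusted p 0.0629 in N2 and 0.148 in CN30) and after quantile normalization (0.384 and 0.13), and in N2 without day-0 replicate 1 or 2. Those on ears-2 were lost in both strains after median-ratio rescaling (adjusted p 0.111 and 0.558). They were also lost in 5 of the 6 N2 fits that left out 1 library, all but that without day-0 replicate 3, and in 4 of 6 in CN30, all but those without day-0 replicate 2 or day 12. The reading of mars-2 carries a further limit, since it lies 109 bases from yars-1 on the same strand of chromosome I, and how reads at the border were assigned is not given in the sources used here.

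The prolyl gene pars-2, the seryl gene sars-2 and the isoleucyl gene iars-2 passed the threshold in neither strain. Their differences were 0.08 ± 0.09, 0.20 ± 0.10 and 0.21 ± 0.33 in N2, and -0.09 ± 0.08, 0.23 ± 0.10 and 0.29 ± 0.24 in CN30. The day-0 values of iars-2 ranged from 5.18 to 12.83 FPKM in N2, wider than its step to the later days. The tyrosyl gene yars-2 was called in CN30 (0.90 ± 0.21, limma, adjusted p 0.00751) and had a difference of 0.32 ± 0.19 in N2. Its locus MXLOC_012467 over 93.8% of its exon bases was higher later in both strains as well.

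Of the 4 members called lower in at least 1 strain, 3 had a locus over the gene. The glycyl gene gars-1 (chromosome III, 5159728 to 5163627, minus strand, 7 exons) was the member with the lowest difference in both strains. In N2 it had 71.58, 74.62 and 74.77 FPKM at day 0 and 36.03, 51.66 and 38.09 FPKM at days 6, 9 and 12. Its values in CN30 were 75.58, 66.91 and 81.70 FPKM at day 0 and 44.62, 36.98 and 50.89 FPKM later. The groups did not overlap, and limma gave -0.82 ± 0.14 (adjusted p 0.00209) in N2 and -0.75 ± 0.14 (adjusted p 0.0021) in CN30.

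Over the same gene lay MXLOC_009139, which contains all of its exon bases and has 25.5% of its own exon bases in the gene. That locus had 27.72, 24.99 and 30.81 FPKM in N2 at day 0 and 59.37, 53.70 and 64.67 FPKM later. In CN30 the locus had 29.39, 39.69 and 28.45 FPKM at day 0 and 56.98, 61.36 and 54.41 FPKM later. The locus was thus higher where gars-1 was lower, by 1.06 ± 0.12 in N2 (limma, adjusted p 0.000223) and by 0.82 ± 0.14 in CN30 (limma, adjusted p 0.00155). How reads were divided between the gene and the locus was not tested.

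The arginyl gene rars-1 (chromosome III, 4914096 to 4917117, minus strand, 10 exons) fell in N2. It had 52.15, 53.89 and 44.48 FPKM at day 0 and 31.12, 38.73 and 35.78 FPKM later, a difference of -0.50 ± 0.12 (limma, adjusted p 0.00898). CN30 values were 47.68, 45.13 and 34.97 FPKM at day 0 and 43.0, 43.54 and 48.56 FPKM later, and these groups overlapped. The difference of the age change between the strains was 0.59 ± 0.18 with an adjusted p of 0.101 (limma), so it did not pass. The locus MXLOC_009106 over 93.2% of its exon bases rose from 54.81 to 60.82 FPKM at day 0 in N2 to 91.58 to 101.73 FPKM later, and from 59.66 to 66.47 FPKM to 84.43 to 91.35 FPKM in CN30.

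In CN30, limma also called fars-1 and kars-1 lower. The gene fars-1 (chromosome I, 6211983 to 6214586, minus strand, 9 exons) encodes the alpha subunit of the cytosolic phenylalanyl enzyme. It had 76.52, 81.09 and 72.28 FPKM in CN30 at day 0 and 71.08, 60.71 and 57 FPKM later, a difference of -0.28 ± 0.10 (limma, adjusted p 0.0356). In N2 it had 78.13, 81.09 and 78.36 FPKM at day 0 and 81.49, 89.04 and 76.44 FPKM later, so the N2 groups overlapped. Its locus MXLOC_002256 had 52.99, 50 and 59.0 FPKM and then 64.68, 62.25 and 78.62 FPKM in N2. In CN30 the locus had 56.41, 60.1 and 60.59 FPKM at day 0 and 61.02, 62.15 and 69.76 FPKM later, higher without overlap where fars-1 was lower.

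For kars-1 the CN30 difference was -0.17 ± 0.06 (limma, adjusted p 0.0405), and no assembled locus lay over it. It turned to 0.41 (adjusted p 0.000818) after quantile normalization. Both the fars-1 and the kars-1 call were lost in 5 of the 6 fits that left out 1 library: without any of the 3 CN30 day-0 libraries, without day 9 or without day 12, 1 member remained called lower. Among the 20 members with no assembled locus over their exons, a set taken after the values were seen, 6 were higher and none lower in N2, and 11 were higher and 1 lower in CN30. That 1 was kars-1.

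**Figure D3:**
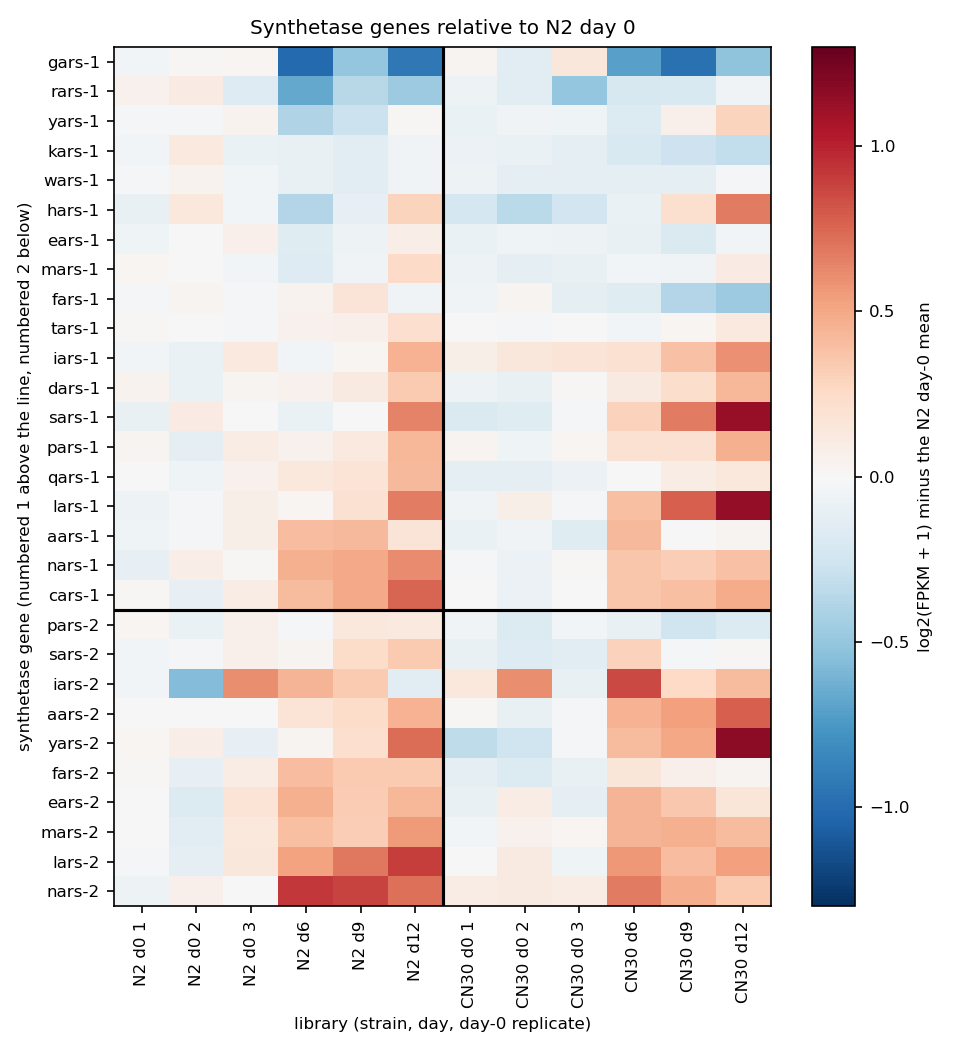
Log2(FPKM + 1) of the 29 members tested minus the N2 day-0 mean of the same gene, for each of the 12 libraries, with genes numbered 1 above and genes numbered 2 below the horizontal line and N2 left of the vertical line. The squares of sars-1, lars-1 and yars-2 are darkest red in the CN30 day-12 library, and gars-1 is blue in the later libraries of both strains.

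The levels differed within the later days too. Summed FPKM of all members lay between 2698.7 and 2769.7 in N2 at day 0, then at 2756.5, 2888.5 and 3366.5 at days 6, 9 and 12. In CN30 the sums lay between 2599.7 and 2647.8 at day 0, then at 2908.5, 3024.8 and 3442.6. Day 12 had the highest sum in both strains.

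Over days 6, 9 and 12, 17 of 29 members (58.6%) stood in rising order in N2, against 26.9% of all genes tested. In CN30, 13 of 29 (44.8%) did, against 22%. Both strains showed this order for 12 members (41.4%), against 11% of all genes, and 10 of these 12 are numbered 1. In falling order stood 2 members (6.9%) in N2, 5 (17.2%) in CN30 and 1 (3.45%) in both, against 17.3%, 28.5% and 9.75% of all genes. With 1 library a day this order is a description, without a test.

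The comparison of day 12 with day 6 took both strains together, with strain as a term. By limma 2 of 29 members were higher at day 12 and none was lower, against 1.31% and 2.49% of all 15719 genes tested (3.8% in all). An unadjusted p under 0.05 was found for 14 members, against 3069 of all genes. The median difference was 0.17 for all members and 0.22 for the genes numbered 1, against 0.01 for all genes. Above the median of all genes lay 22 of the 29 members. After median-ratio rescaling the members' median was 0.05 against -0.06 for all genes, and 20 of 29 members lay above the latter. None was then called, against 122 higher and 396 lower of all 15676 genes. After quantile normalization the members' median was 0.19 against 0.005 for all genes. It called 6 members higher and none lower, against 261 and 369 of all 15719 genes.

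The isoleucyl gene iars-1 (chromosome IV, 10368607 to 10373136, plus strand, 10 exons) was called. In N2 it had 130.14, 125.77 and 145.62 FPKM at day 0 and 130.25, 135.55 and 182.66 FPKM at days 6, 9 and 12. In CN30 it had 141.33, 147.63 and 149.76 FPKM at day 0 and 152.93, 174.28 and 202.71 FPKM later. Day 12 was the highest library of each strain, and limma gave 0.44 ± 0.09 for day 12 against day 6 (adjusted p 0.0338). The call on iars-1, like that on lars-1, was lost in 8 of the 12 fits that left out 1 library.

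The leucyl gene lars-1 (chromosome III, 4181549 to 4186801, minus strand, 7 exons) was the other. In N2 it had 103.73, 107.45 and 114.78 FPKM at day 0 and 110.53, 124.50 and 173.06 FPKM later. For CN30 the values were 105.47, 114.25 and 106.89 FPKM at day 0 and 143.03, 186.55 and 241.10 FPKM later. Both strains rose from day 6 to day 12, and CN30 lay above N2 on each later day. Day 12 was higher than day 6 by 0.70 ± 0.16 (limma, adjusted p 0.0403).

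Leaving out any of N2 day-0 replicate 1, N2 day 6, N2 day 12, CN30 day 6, CN30 day 12 or a CN30 day-0 library left no member called between day 12 and day 6. Leaving out N2 day-0 replicate 2 left 4.

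**Figure D4:**
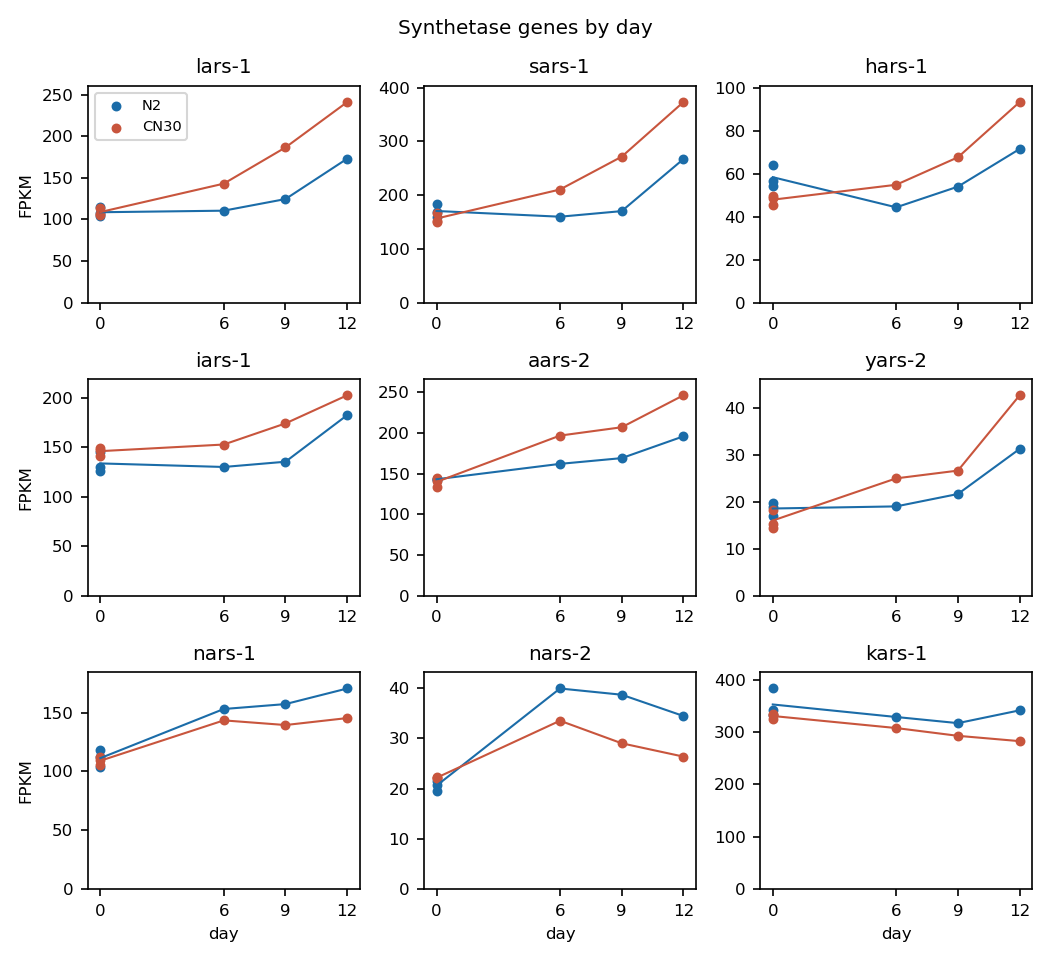
FPKM of 9 synthetase genes by day, with 3 points at day 0 and 1 point at each of days 6, 9 and 12 for each strain; lines join the day-0 mean to the later values. CN30 reaches 241.10 FPKM of lars-1 and 373.23 FPKM of sars-1 at day 12, above the N2 values of 173.06 and 267.17 FPKM.

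The strain comparison at day 0 called no member. By limma none of the 29 was called, against 3.68% of all 14380 genes tested (2.07% higher and 1.61% lower). An unadjusted p under 0.05 was found for 1 member, hars-1, against 3202 of all genes. The differences lay between -0.28 for hars-1 and 0.21 for iars-2, and 22 of 29 were negative. Above the median of all genes lay 3 of the 29. After median-ratio rescaling or quantile normalization 26 of 29 were negative, again 3 lay above that median, and none was called. Without overlap 1 member was higher and 6 lower in CN30, against 18.2% and 12.6% of all genes. For all genes the median difference was 0.08 in the main fit. Leaving out N2 day-0 replicate 2 still left no member called, while 844 of all 14243 genes were then higher and 909 lower.

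At days 6 to 12, with day as a term, 4 of 29 members were higher in CN30 and none was lower by limma, against 9.77% and 3.21% of all 13015 genes tested (13% in all). The 4 were lars-1, sars-1, aars-2 and hars-1. An unadjusted p under 0.05 was found for 12 members, against 4760 of all 13015 genes. Of the 29 differences, 14 were positive. Without overlap 2 members were higher and 6 lower, against 21.7% and 13% of all genes. Leaving out any of the 6 libraries left no member called. Over all genes, calls also fell, to none without day 9 of either strain. Without day 6 of N2 10 genes were higher and 15 lower, and without that of CN30 9 and 21. Without day 12 of N2 875 genes were higher and 175 lower, and without that of CN30 751 and 179. No member was called without the filter on low values, where 2 of all 21733 genes were higher. None was called without the day term either, where 86 of 13015 genes were higher and 48 lower. After median-ratio rescaling 2 members (lars-1 and sars-1) were higher and 8 lower, against 1253 and 1910 of all 12956 genes. That rescaling moved the median of all genes from 0.06 to -0.08, and 12 of 29 members lay above that median in either fit.

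The gene lars-1 was higher in CN30 by 0.47 ± 0.07 (limma, adjusted p 0.0304). The seryl gene sars-1 (chromosome IV, 10003726 to 10005578, plus strand, 6 exons) had 159.11, 183.13 and 169.36 FPKM in N2 at day 0 and 159.88, 170.30 and 267.17 FPKM later. The CN30 libraries had 149.84, 152.76 and 166.86 FPKM at day 0 and 210.49, 271.59 and 373.23 FPKM later. CN30 was higher on each later day but the 3 days together overlapped between the strains. The difference was 0.52 ± 0.07 (limma, adjusted p 0.0309).

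The cytosolic alanyl gene aars-2 (chromosome I, 3983183 to 3986581, plus strand, 6 exons) had 143.65, 143.25 and 142.96 FPKM in N2 at day 0 and 162.21, 169.27 and 196.05 FPKM later. CN30 libraries gave 144.91, 133.78 and 141.39 FPKM at day 0 and 196.96, 207.21 and 246.51 FPKM later. The lowest later CN30 value lay just above the highest N2 value. CN30 was higher by 0.30 ± 0.05 (limma, adjusted p 0.0398). With age aars-2 rose in both strains, by 0.29 ± 0.09 in N2 (adjusted p 0.0229, limma) and by 0.62 ± 0.10 in CN30 (adjusted p 0.00111, limma). The N2 call was lost after median-ratio rescaling (0.11, adjusted p 0.384) and without any 1 of the 3 N2 day-0 libraries.

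The histidyl gene hars-1 (chromosome IV, 10858957 to 10861284, plus strand, 5 exons), which in the worm supplies both compartments, had 54.33, 64.24 and 56.82 FPKM in N2 at day 0 and 44.42, 54.06 and 71.61 FPKM later. Its values in CN30 were 49.57, 45.44 and 48.92 FPKM at day 0 and 54.93, 67.74 and 93.48 FPKM later. CN30 was lower than every N2 library at day 0 and higher on each later day, by 0.33 ± 0.07 over days 6 to 12 (limma, adjusted p 0.0449). With a pseudocount of 0.1 the adjusted p was 0.0501. The locus MXLOC_011338 over 94% of its exon bases rose from 25.92 to 29.23 FPKM at day 0 in N2 to 57.41 to 71.38 FPKM later, and from 31.60 to 35.04 FPKM to 63.94 to 73.91 FPKM in CN30.

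The test of the strain by age difference itself called none of the 29 members by limma, against 2% of all 15719 genes tested (1.15% higher and 0.852% lower). That main fit held no term for the later days. A fit with a block, by replicate number at day 0 and by day later, called some members higher, as counted in the closing section. Of all genes, 464 were then higher and 245 lower. Without N2 day-0 replicate 2 and without the block, 713 of all 15662 genes were higher and 322 lower. In the main fit 4 members had an unadjusted p under 0.05, against 3885 of all 15719 genes. They were nars-2 (-0.44 ± 0.14, adjusted p 0.1), rars-1 (0.59 ± 0.18), fars-1 (-0.34 ± 0.13, adjusted p 0.151) and aars-2 (0.33 ± 0.13, adjusted p 0.163). By the main fit, an age change that passed in 1 strain and missed in the other is therefore not shown to differ between them.

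For 10 amino acids both genes were tested, and the ratio of the cytosolic to the mitochondrial gene can be formed within a library, free of the library's scale. The mean ratio was lower later than at day 0 in 9 of 10 pairs in N2 and in 6 of 10 in CN30. Among these the ages overlapped for alanine, serine and isoleucine in N2 (isoleucine 17.4 and 16.5). In CN30 they overlapped for asparagine (4.93 and 4.87) and isoleucine (15.7 and 15.3). The pairs of alanine, phenylalanine, isoleucine, methionine and tyrosine hold a gene under an assembled locus. Their ratio can therefore also change with how reads were assigned. For tyrosine the ratio of yars-1 to yars-2 fell from 3.33 ± 0.35 (SD, n = 3) at day 0 to 2.26 ± 0.24 at days 6 to 12 in N2, and from 3.70 ± 0.40 to 2.12 ± 0.32 in CN30, without overlap. For serine the ratio of sars-1 to sars-2 was 4.01 ± 0.33 and 4.0 ± 0.83 in N2, and 4.05 ± 0.27 and 6.37 ± 2.33 in CN30. For alanine the ratio of aars-2 to aars-1 was 10.8 ± 0.58 and 10.5 ± 2.19 in N2, and 11.4 ± 0.84 and 14.9 ± 3.71 in CN30. An unequal change within a pair does not show that either gene stayed the same.

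Outside the naming rule 2 further synthetase genes were measured. The worm gene glp-4 encodes a valyl-tRNA synthetase and is named for a mutant with a defective germ line. It had 149.68, 240.03 and 152.16 FPKM in N2 at day 0 and 87.52, 88.16 and 92.67 FPKM later. The same gene in CN30 had 142.95, 139.11 and 160.71 FPKM at day 0 and 92.54, 82.44 and 89.28 FPKM later. It was lower later without overlap in both strains, by limma differences of -0.97 ± 0.19 (adjusted p 0.00321) and -0.74 ± 0.08 (adjusted p 0.00024), and no assembled locus lay over it. Without N2 day-0 replicate 2, its highest library, the N2 difference was -0.75 and still called.

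The gene fars-3 encodes the beta subunit that works with fars-1. It had 46.0, 47.06 and 52.76 FPKM in N2 at day 0 and 8.67, 15.94 and 21.83 FPKM later, a difference of -1.67 ± 0.30 (limma, adjusted p 0.00243). CN30 values were 33.17, 44.68 and 25.07 FPKM at day 0 and 26.45, 24.06 and 8.01 FPKM later, a difference that missed the threshold (adjusted p 0.108). The locus MXLOC_004431 over 99.8% of its exon bases had 68.33 to 73.83 FPKM in N2 at day 0 and 88.85 to 100.87 FPKM later.

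Genes written as a list of tRNA processing and modification were mostly called higher with age. Of 25 tested, 19 were higher and 1 lower in N2, and 24 were higher and none lower in CN30 by limma, against 40.7% and 46% of all genes called higher and 32% and 34.9% called lower. Their median differences were 0.74 and 0.53, against 0.14 and 0.24 for all genes. Without genes under an assembled locus, 16 of 19 and 19 of 19 were higher, and after median-ratio rescaling 17 of 25 and 12 of 25, and after quantile normalization 14 of 25 in each strain. The pseudouridine synthase gene pus-1 rose from 49.3 ± 1.25 (SD, n = 3) to 82.7 ± 0.73 FPKM in N2 and from 49.7 ± 0.16 to 89.1 ± 3.42 FPKM in CN30. The gene mtcu-2, whose product modifies mitochondrial tRNAs, rose from 24.6 ± 0.89 to 59.5 ± 3.30 FPKM in N2, and elpc-4, of the Elongator complex that modifies the tRNA wobble base, from 34.1 ± 1.67 to 69.0 ± 5.60 FPKM in CN30. The listed gene that was lower in N2 was nsun-1, from 81.7 ± 4.85 to 51.5 ± 10.6 FPKM, and a locus lies over it. Whether nsun-1 and each other listed gene act on tRNA rather than on other RNA was not checked. Between the strains at days 6 to 12 the thiolation carrier gene urm-1 was lower in CN30, at 57.8 ± 4.74 against 80.8 ± 8.07 FPKM (limma, adjusted p 0.0314). That call was lost without any 1 of the 6 libraries (adjusted p 0.0642 to 0.165), without the filter (0.0693) and without the day term (0.078). Calls over all genes fell in the same fits.

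Initiation factors were called in both directions, where 40.7% of all genes were called higher and 32% lower in N2 and 46% and 34.9% in CN30. Of 34 tested in N2, 10 were higher and 9 lower, and of 33 in CN30, 11 were higher and 6 lower by limma, with medians of 0.00 and -0.01. Among the 25 with no assembled locus over them, 10 were higher and 4 lower in N2, and 11 were higher and 3 lower in CN30. The gene eif-2Bdelta, a subunit of the eIF2B exchange factor, rose from 36.6 ± 1.52 to 75.3 ± 5.73 FPKM in N2 and from 39.8 ± 3.40 to 73.7 ± 2.99 FPKM in CN30. The eIF4A helicase gene inf-1 fell from 623 ± 65.1 to 316 ± 15.1 FPKM and from 513 ± 27.7 to 295 ± 29.1 FPKM, a CN30 call that was lost after quantile normalization (adjusted p 0.305). After median-ratio rescaling 6 initiation factors were higher and 10 lower in N2, and 4 higher and 18 lower in CN30. After quantile normalization these counts were 9 and 9 in N2, and 14 and 7 in CN30. Between the strains at days 6 to 12, the eIF5A gene iff-2 was higher in CN30, at 205 ± 47.4 against 114 ± 24.5 FPKM, and so was ife-4, of the cap-binding eIF4E family, at 15 ± 0.28 against 7.09 ± 0.30 FPKM (limma, adjusted p 0.0227 and 0.0297). Its relative ife-3 was lower, at 252 ± 27.6 against 320 ± 27.4 FPKM (limma, adjusted p 0.0405). The ife-3 call was lost without any 1 of the 6 libraries (adjusted p 0.0847 to 0.188), without the filter (0.0778), without the day term (0.112) and after quantile normalization (0.0548). Leaving out day 6 or day 9 of either strain ended the calls on iff-2 and ife-4, as did CN30 day 12 for ife-4, with adjusted p over the 6 such fits of 0.031 to 0.15 for iff-2 and 0.0487 to 0.165 for ife-4. Without the filter both were lost (0.0671 and 0.0693), and without the day term iff-2 was (0.0888). Calls over all genes fell in each of the fits that ended these strain calls.

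Of 11 elongation and termination factors, 2 were higher and 2 lower in N2, and 2 were higher and 3 lower in CN30 by limma, against 40.7% and 46% of all genes higher and 32% and 34.9% lower. These counts moved with the scaling. Median-ratio rescaling gave 2 higher and 3 lower in N2, and 2 higher and 8 lower in CN30. Quantile normalization gave 6 higher and 2 lower in N2, and 6 higher and 1 lower in CN30. The gene eef-1A.2 encodes elongation factor 1A, which brings charged tRNA to the ribosome. It fell from 577 ± 66.5 to 199 ± 50.3 FPKM in N2 and from 537 ± 32.7 to 402 ± 48.4 FPKM in CN30, and it was higher in CN30 than in N2 at days 6 to 12 by 1.03 ± 0.08 (limma, adjusted p 0.0227). That call was lost without day 6 or day 9 of either strain (adjusted p 0.022 to 0.15 over the 6 libraries left out), without the filter (0.0671) and without the day term (0.061). Fewer of all genes were called in those fits too. The difference of the age change between the strains was 1.13 ± 0.23 (limma, adjusted p 0.0363). After quantile normalization the CN30 age difference of eef-1A.2 was 0.36, not past the threshold (adjusted p 0.0662).

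Of 5 mitochondrial translation factors tested, 3 were higher and none lower in N2, and 2 were higher and 1 lower in CN30 by limma, against the same shares of all genes (40.7% and 46% higher, 32% and 34.9% lower). After median-ratio rescaling 2 were higher and none lower in N2, and 1 higher and 3 lower in CN30. After quantile normalization 1 was higher and none lower in N2, and 1 higher and 2 lower in CN30. The ribosome recycling factor gene mrrf-1 rose from 19.1 ± 4.27 to 35.9 ± 3.39 FPKM in N2 and from 20.5 ± 2.66 to 33.4 ± 1.26 FPKM in CN30.

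Among 18 genes of amino acid and stress sensing through eIF2 and TOR, 7 were higher and 3 lower in N2, and 12 were higher and 3 lower in CN30 by limma, against 40.7% and 46% of all genes higher. Of the 7 genes with no assembled locus over them, 3 were higher and 1 lower in N2, and 5 higher and 1 lower in CN30. In CN30, 7 were higher after median-ratio rescaling and 9 after quantile normalization. The Rag GTPase gene ragc-1 rose from 110 ± 4.74 to 247 ± 16.7 FPKM in N2 and from 132 ± 3.37 to 226 ± 11.1 FPKM in CN30. The asparagine synthetase gene asns-1 makes the amino acid that nars-1 and nars-2 load. It fell from 22.1 ± 12.5 to 0.46 ± 0.46 FPKM in N2 and from 19.5 ± 1.40 to 1.14 ± 0.36 FPKM in CN30 (limma, adjusted p 0.000719 and 1.66e-05). The gene gcn-1, whose product helps GCN2 sense uncharged tRNA, fell from 13.5 ± 1.64 to 0.53 ± 0.31 FPKM in N2. The gene nprl-3 was listed at 0 in all 3 N2 day-0 libraries and had 5.67 ± 1.43 FPKM in CN30 at day 0, while MXLOC_011013 over 99.9% of its exon bases had 18.68 to 19.25 FPKM in those N2 libraries. For gcn-1, the locus MXLOC_007311 over all of its exon bases had 55.48 to 60.45 FPKM at day 0 in N2 and 60.90 to 69.66 FPKM later.

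Markers of several tissues moved with age. Summed FPKM of 13 oocyte and eggshell genes was 2232.2 to 3417.6 in N2 at day 0 and 9422.8 to 11552.0 later, and 3085.7 to 3530.7 and 7749.4 to 9209.7 in CN30, with all 13 called higher in both strains by limma. The sum of 10 sperm genes was 1644.3 to 2044.5 over the day-0 libraries and 3.6 to 86.1 later. Body-wall muscle (5 genes) went from 3711.1 to 4751.0 at day 0 to 273.2 to 629.4 later, and cuticle genes (7 genes) from 2746.1 to 3525.2 to 18.3 to 300.9. The intestinal sum (7 genes) was 6277.4 to 8242.9 in N2 and 6777.8 to 7058.0 in CN30 at day 0. At days 6, 9 and 12 it was 9262.9, 9572.7 and 2507.7 in N2 and 7040.4, 4078.9 and 2101.1 in CN30. It was thus lowest at day 12, where the summed synthetase level was highest. Single intestinal genes went in both directions. Limma called 1 of 7 higher and 2 lower in N2 (median -0.93), and 1 higher and 4 lower in CN30 (median -1.26). The neuronal sum (6 genes) was 94.9 to 109.9 at day 0 and 119.9 to 188.8 later, but single neuronal genes went in both directions. Of the 5 tested, limma called 1 higher and 3 lower in N2 (median -0.77). In CN30 it called 1 higher and 2 lower (median 0.07). Of all genes, 40.7% and 46% were called higher in N2 and CN30, and 32% and 34.9% lower. No list had a gene at 0 in every library. The part of tissue composition in the synthetase values was not tested.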

How the data were processed

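Total RNA was measured in 12 libraries. The authors deposited FPKM per gene and library, per the file headers, for mRNA genes; the submitters' processing notes name HISAT, StringTie and WBcel235 without versions or roles, and filters and strand settings are not given in the sources used here. A deposited table in other units lists exon numbers, lengths and positions of assembled transcripts, per the file headers, and placed the assembled loci (3167 rows) over the genes. The lncRNA table was not used here. Of 19024 annotated gene IDs, 18888 had a symbol. The members and gene lists were chosen with earlier results of these data known; cca-1 was taken off the tRNA list after results were seen, because it is a calcium channel gene.

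Values were analysed as log2(FPKM + 1), which understates changes of low genes, with limma 3.58.1 in R 4.3.3 (lmFit, eBayes with trend), for genes with at least 1 FPKM in at least 3 libraries of the fit. P-values are two-sided, with Benjamini-Hochberg adjustment over all genes of a comparison and a threshold of 0.05; differences are given with their SE, and group means with their SD. Of 31 members 29 were tested, since vars-1 and dars-2 were too low. An assembled locus counted as over a gene where their exons shared bases on the same strand. Values in all 12 libraries are given for up to 3 members per direction and comparison with the smallest p and at least 5 FPKM, for members called between strains or later days, for members listed at 0, and for the highest and lowest of each class; lars-2 was added after its values were seen. List genes named were chosen from those with the smallest p in a direction, and were not always the first. Among genes lower in N2, erfa-1 had a smaller p than eef-1A.2, and drr-2 a smaller p than inf-1. The genes dph-1 and dph-2, called higher with age in both strains, were not named either. The fits were tested on simulated data. Replicates of a strain shared no more than 21 identical values of 5 FPKM or more, so none was a repeat deposit. Same-numbered day-0 libraries did not deviate together. The fits were repeated with each library left out in turn, without the low-value filter, with a pseudocount of 0.1, after median-ratio rescaling or quantile normalization, with the replicate block, without the day term and jointly over all libraries; members without an overlapping locus and the exchanged alanine pair were added after seeing the data. Summaries were computed in Python 3.11.15 (NumPy 2.4.6, pandas 2.3.3) and plotted with Matplotlib 3.10.9.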

Additional observations from a re-analysis of the deposited data

Results flagged for a closer look

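The elongation factor gene eef-1A.2 changed with age by a different amount in the strains, by the test of that difference itself. The fall was smaller in CN30 than in N2 by 1.13 ± 0.23 on the log2 scale (limma, adjusted p 0.0363), with later means of 402 ± 48.4 FPKM in CN30 and 199 ± 50.3 FPKM in N2 (SD, n = 3). The call held under the 5 other settings, with adjusted p between 0.0178 and 0.0464, and was lost in 9 of the 12 fits that left out 1 library (0.00237 to 0.108 over all 12). No synthetase gene passed this test in the main fit.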

How the results depend on the processing

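The counts of synthetase genes called moved by over 1.5 times in these fits; the cause was not tested. For CN30 against N2 at days 6 to 12 (4 higher, 0 lower), no filter and no day term each gave 0 higher. Median-ratio rescaling gave 2 higher and 8 lower, and the joint fit of all 12 libraries 7 higher and 4 lower. Leaving out each library gave 0 to 0 higher. Over all genes, calls also fell without the filter, without the day term and in each fit that left out a library. With age in N2 (8 higher, 2 lower), median-ratio rescaling gave 4 higher, quantile normalization 6 lower and members without an overlapping locus 0 lower; leaving out each library gave 5 to 9 higher and 2 to 3 lower. With age in CN30 (15 higher, 3 lower), median-ratio rescaling gave 4 higher and 7 lower and members without an overlapping locus 1 lower; leaving out each library gave 9 to 16 higher and 1 to 3 lower. For day 12 against day 6 (2 higher), no filter gave 1, quantile normalization 6 and median-ratio rescaling 0; leaving out each library gave 0 to 4. The interaction (0 higher, 0 lower) gave 3 higher with the replicate block, which groups day-0 libraries by number and later ones by day. It gave 0 to 1 lower when a library was left out. Day-0 numbers shared by the strains do not pair the libraries, since the same-numbered deviations correlated at 0.059, -0.035 and -0.017 and not every library correlated best with its own number; the block left the day-0 counts at 0. Named differences that reversed were kars-1 in CN30 (0.41), fars-2 in CN30 (-0.15) and N2 (-0.081), eef-1A.2 in CN30 (0.36) and tufm-2 in CN30 (-0.020) under quantile normalization, and fars-2 (-0.064), pars-1 (-0.0044) and qars-1 (-0.11) in CN30 under median-ratio rescaling. Limits: depth is unknown, each later age has 1 library, and reads can be shared with assembled loci.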
